A study of Mus musculus with 8 samples.

Results

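The 10 genes described here encode proteins of the tight junction. They are the claudin genes Cldn1, Cldn2, Cldn3, Cldn4, Cldn7, Cldn8, Cldn15 and Cldn23, the occludin gene Ocln, and Tjp1, which encodes the scaffold ZO-1. They were taken by symbol from the 32285 genes listed in single-cell RNA-seq of mouse colon, and all 10 were present. Epithelial cells were taken from colon tissue, from organoids and from assembloids (by FACS according to the series' design text, while the study's methods describe only dissociation and straining), with 2 libraries of each, and 6 of the 8 libraries of the series were used (the other two hold assembloid stroma). Organoids are spheres of colonic epithelium grown in Matrigel from isolated crypts; here they stayed in full medium with surrogate Wnt, CHIR-99021, R-spondin 1 and noggin. Assembloids are such organoids joined with cultured primary stromal cells on an orbital shaker and then kept in a medium that lacks those 4 factors (-WCRN), so that stroma and medium both differ from the organoid cultures and their parts cannot be told apart. Tissue cells came from freshly isolated crypts. By the study's methods, assembloids were digested with the enzymes Liberase TL and DNase I before TrypLE, and organoids were given TrypLE alone. Tissue crypts were released with EDTA and DTT before TrypLE. The dissociation thus differed between all groups, and its part in any difference between them cannot be told apart. The labels give neither strain nor age, sex or number of animals. By the study's methods the epithelium was of C57BL/6 mice, the mice used were young adult males, and the 2 libraries of a group are biological replicates, without saying whether these are separate animals or separate cultures. The p-values measure the spread between these libraries.

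Tight junctions close the gap between neighbouring epithelial cells near their apical border. Claudins are four-pass membrane proteins that polymerize into strands and give each epithelium its permeability: some form channels for ions or water, and others seal. Occludin is another membrane protein of the strands, and the ZO proteins tie them to the actin cytoskeleton. In the colon, claudin-2 is known from the undifferentiated lower crypt and claudin-8 from the surface barrier.

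Levels are given as CPM, the UMIs (unique transcript molecules) of a gene per 1000000 UMIs of the summed epithelial cells of a library. The 6 libraries held 4300 to 27671 epithelial cells with 36931993 to 187582093 UMIs, and the median cell had 3450 to 35225 UMIs. Of the barcodes, 25.4% to 89.3% passed the limits of 500 genes and 10% mitochondrial UMIs, with the lowest shares in the tissue libraries. Barcodes shared by a pair of libraries made up 0.284% to 0.980% of the smaller one. Cells with more epithelial than stromal marker UMIs were kept, which left out 1739 and 835 cells of the assembloid libraries. The marker sums given here were taken after this gate, which by itself favours high epithelial and low stromal sums. Epithelial markers were high in each library. The 6 fibroblast markers summed to at most 0.0542 CPM in tissue and organoids and to 231 and 52.7 CPM in the assembloid libraries, where none was at 0; the 9 immune markers summed to at most 2.87 CPM in tissue and organoids and to 68.8 and 29.7 CPM in assembloids. Each of the 27 tests of members on whole libraries kept its side of the threshold when only cells with at most 1/10 as many stromal as epithelial marker UMIs were used, a limit chosen after seeing the data.

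Cldn4 and Cldn3 are neighbours on chromosome 5 of GRCm38 (mm10, the build the labels name), with 39279 bases between them. By GENCODE M21, Cldn4 (ENSMUSG00000047501) lies at chr5:134945119-134946934 on the minus strand and Cldn3 (ENSMUSG00000070473) at chr5:134986214-134987472 on the plus strand, where Wbscr25 overlaps it on the other strand. Cldn2 (ENSMUSG00000047230) lies at chrX:139800828-139811386 on the plus strand and Cldn8 (ENSMUSG00000050520) at chr16:88560828-88563183 on the minus strand. No annotated gene overlapped Cldn2, Cldn4 or Cldn8. The 250 bases before the RefSeq start (GRCm38.p6) are shown 5′ to 3′ for 3 members that behaved differently in culture: Cldn4, the member with the highest rise, its neighbour Cldn3, which was not called on whole libraries, and Cldn2, which fell. Capitals mark the AP-1 letters TGANTCA and the TATA letters TATAAA, searched on both strands and chosen with the sequences in view.
Cldn4 (chr5:134946935-134947184, minus strand): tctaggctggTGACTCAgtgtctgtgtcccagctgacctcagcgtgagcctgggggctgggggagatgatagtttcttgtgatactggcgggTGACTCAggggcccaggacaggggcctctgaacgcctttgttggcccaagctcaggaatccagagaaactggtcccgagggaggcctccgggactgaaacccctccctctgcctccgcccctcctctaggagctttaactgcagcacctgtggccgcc
Cldn3 (chr5:134985964-134986213, plus strand): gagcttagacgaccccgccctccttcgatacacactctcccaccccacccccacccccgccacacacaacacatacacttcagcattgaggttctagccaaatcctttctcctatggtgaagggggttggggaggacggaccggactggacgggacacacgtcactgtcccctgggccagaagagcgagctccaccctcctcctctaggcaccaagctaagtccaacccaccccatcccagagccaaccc
Cldn2 (chrX:139800558-139800807, plus strand): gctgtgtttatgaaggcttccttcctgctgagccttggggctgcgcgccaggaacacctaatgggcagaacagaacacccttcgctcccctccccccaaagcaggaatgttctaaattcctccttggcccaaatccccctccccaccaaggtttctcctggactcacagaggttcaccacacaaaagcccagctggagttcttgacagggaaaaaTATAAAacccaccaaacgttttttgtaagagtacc
The Cldn4 window held 2 AP-1 matches, that of Cldn3 none, and that of Cldn2 1 TATA match. The only other member with an AP-1 match was Cldn15, which fell in assembloids and whose window held 1. Of 32851 such windows, 6.75% held an AP-1 match, 0.338% held 2 or more, and 12.4% held a TATA match. The GC box letters GGGCGG, also searched on both strands and left in lower case, were found in 32.7% of windows, with 1 match each in those of Cldn4 and Cldn3 and 0 in that of Cldn2. RefSeq windows were found for 8 of the 10 members, and Cldn8 and Cldn23 have no entry in the table used. These matches describe letters and were not tested for binding.

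On whole libraries, assembloid epithelium had far more Cldn4 and more Tjp1 and Ocln than tissue, and almost no Cldn8, less Cldn2 and less Cldn15 and Cldn23. Organoids had more Cldn4 than tissue and less Cldn8, Cldn23 and Cldn2, and, unlike assembloids, less Ocln. Of the 9 members tested by edgeR's quasi-likelihood test, 7 were called between assembloid and tissue at an adjusted p below 0.05 (3 higher, 4 lower), where 50.0% of all genes tested were called. Between organoid and tissue 5 were called (1 higher, 4 lower; 47.1% of all genes), and between organoid and assembloid 6 (2 higher, 4 lower; 53.4% of all genes). Without tissue 2 the first count was 4, and without tissue 1 the second was 3. The median log2 fold change of the 9 members was 0.45, -0.11 and -0.66 in these 3 comparisons, against 0.03, 0.06 and -0.01 over all genes. The first 2 comparisons share the tissue libraries and the last shares libraries with each. In such sums, fewer cells of a type and less RNA per cell cannot be told apart. Cldn1, which encodes a sealing claudin, had 1 UMI in each tissue library, none in organoids, and 25 and 8 UMIs in assembloids, at most 0.149 CPM, and was too low to test.

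**Figure D1:**
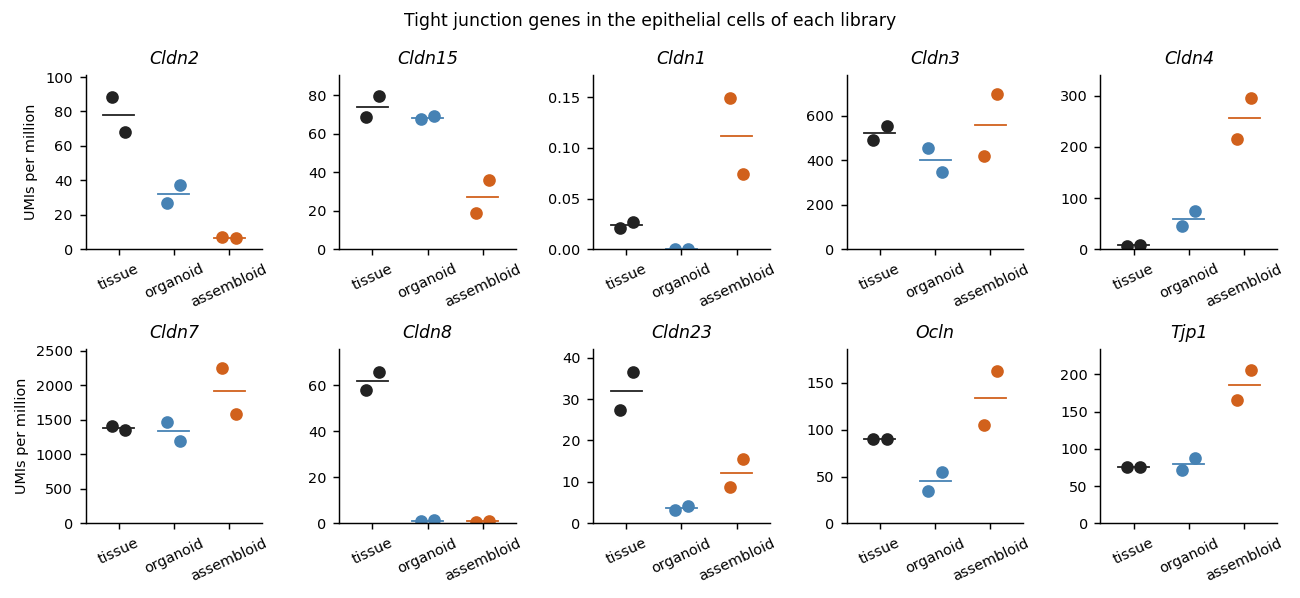
CPM of each tight junction gene (linear axes from 0) in the epithelial cells of the 6 libraries, grouped as tissue, organoid and assembloid; each point is a library and each line the mean of 2. Cldn4 ran from 6.81 to 296, highest in assembloids, while Cldn8 lay between 57.9 and 65.7 in tissue and at or below 1.58 in both cultures.

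Cldn2 encodes a channel for small cations and water. Its level was 88.2 and 68.0 CPM in the tissue libraries, 26.7 and 37.2 CPM in organoids and 6.96 and 6.44 CPM in assembloids. The 3 groups did not overlap, with tissue highest and assembloids lowest. Cldn2 was 8.88-fold lower in assembloids than in tissue (log2 fold change -3.15 ± 0.23 SE, adjusted p = 3.44e-05), lower in organoids than in tissue (-1.07 ± 0.21, adjusted p = 0.00351) and higher in organoids than in assembloids (2.08 ± 0.22, adjusted p = 0.000205). The organoid difference from tissue was no longer called without tissue 1 (-0.88, adjusted p = 0.0575). Cldn15, which encodes the other well-known cation channel of the intestine, was at 68.6 and 79.5 CPM in tissue, 67.5 and 69.2 CPM in organoids and 18.9 and 35.8 CPM in assembloids. Tissue and organoids overlapped, and both assembloid libraries lay below them. Cldn15 fell in assembloids against tissue (log2 fold change -1.08 ± 0.27, adjusted p = 0.0101) and was higher in organoids than in assembloids (1.21 ± 0.27, adjusted p = 0.00553). The difference between organoid and tissue was 0.13 ± 0.26 (adjusted p = 0.723). Without assembloid 1 or tissue 2 the Cldn15 difference between assembloid and tissue missed the threshold (-0.74 and -0.98, adjusted p = 0.0787 and 0.0768).

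Cldn4 is usually described as a sealing claudin. It was at 6.81 and 8.53 CPM in tissue, 45.1 and 74.7 CPM in organoids and 216 and 296 CPM in assembloids. The groups did not overlap, and the order of tissue, organoid and assembloid was the reverse of that of Cldn2. Cldn4 was 43.1-fold higher in assembloids than in tissue (log2 fold change 5.43 ± 0.29, adjusted p = 1.24e-05) and 8.99-fold higher in organoids than in tissue (3.17 ± 0.26, adjusted p = 5.07e-05), and it was lower in organoids than in assembloids (-2.26 ± 0.25, adjusted p = 0.000265). With at most 5% mitochondrial UMIs per cell the differences from tissue were smaller (4.81 and 2.51) and still called. Cldn8, a claudin of the distal colon barrier, went the other way. It was at 57.9 and 65.7 CPM in tissue, 0.965 and 1.58 CPM in organoids and 0.496 and 1.27 CPM in assembloids, where it rested on 83 to 181 UMIs per culture library. Both cultures lay far below tissue and overlapped each other. Cells of the assembloid libraries with more fibroblast than other marker UMIs held Cldn8 at 0.454 and 0.142 CPM. Assembloid 1 was therefore near background, and the size of the assembloid fall is not fixed by these data. No background was measured in organoids, so the size of the organoid fall is not fixed either. Cldn8 was 55.8-fold lower in assembloids (log2 fold change -5.80 ± 0.40, adjusted p = 2.88e-05, and -6.49 without assembloid 2) and 42.3-fold lower in organoids (-5.40 ± 0.39, adjusted p = 2.58e-05) than in tissue, while organoids and assembloids differed by 0.40 ± 0.35 (adjusted p = 0.361), a difference that was called without assembloid 2 (1.09, adjusted p = 0.0140).

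The sealing claudins Cldn3 and Cldn7 varied less. Cldn3 was at 491 and 551 CPM in tissue, 456 and 344 CPM in organoids and 417 and 696 CPM in assembloids. The assembloid libraries lay on either side of those from tissue. No comparison of Cldn3 on whole libraries was called (log2 fold changes 0.45 ± 0.33, -0.11 ± 0.33 and -0.57 ± 0.33 for assembloid against tissue, organoid against tissue and organoid against assembloid), though the last was without organoid 1 (-0.99, adjusted p = 0.0411). Cldn7, whose product also sits on the lateral membrane and binds EpCAM, was at 1417 and 1354 CPM in tissue, 1476 and 1200 CPM in organoids and 2248 and 1589 CPM in assembloids. Both assembloid libraries lay above the other 4, but the spread between them was wide. The Cldn7 difference between assembloid and tissue was 0.87 ± 0.36 and missed the threshold (adjusted p = 0.0745), which it passed without assembloid 2 (1.17, adjusted p = 0.0354), without organoid 1 or 2 (0.85 and 0.86), with no filter on low counts (0.89, adjusted p = 0.0446), with at most 5% mitochondrial UMIs (0.91, adjusted p = 0.0185) and with DESeq2 (0.91, adjusted p = 0.00798). Organoids differed from tissue by 0.21 ± 0.36 and from assembloids by -0.66 ± 0.36 in Cldn7, neither called; the second was without organoid 1 (-1.01, adjusted p = 0.0494), with at most 5% mitochondrial UMIs (-0.70, adjusted p = 0.0463) and with DESeq2 (-0.73, adjusted p = 0.0353).

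Cldn23 encodes a claudin of the differentiated epithelium. Its level was 27.3 and 36.6 CPM in tissue, 3.33 and 4.12 CPM in organoids and 8.75 and 15.4 CPM in assembloids. The groups did not overlap, and organoids were lowest. Cldn23 was 7.33-fold lower in organoids than in tissue (log2 fold change -2.87 ± 0.27, adjusted p = 9.46e-05), and organoids had less than assembloids (-1.83 ± 0.26, adjusted p = 0.000798). The fall in assembloids against tissue was smaller (-1.05 ± 0.26, adjusted p = 0.00975) and was not called without tissue 2 (-0.83, adjusted p = 0.0963) or assembloid 1 (-0.74, adjusted p = 0.0594).

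Occludin and ZO-1 were highest in assembloids. Ocln was at 89.9 and 90.2 CPM in tissue, 34.7 and 55.2 CPM in organoids and 106 and 163 CPM in assembloids, and Tjp1 was at 75.8 and 75.4 CPM in tissue, 72.2 and 87.9 CPM in organoids and 166 and 206 CPM in assembloids. Assembloids lay above the other groups for both genes, and organoids lay below tissue for Ocln but around it for Tjp1. Tjp1 was 3.19-fold higher in assembloids than in tissue (log2 fold change 1.67 ± 0.20, adjusted p = 0.000359), and organoids had less than assembloids (-1.36 ± 0.20, adjusted p = 0.000903), with 0.31 ± 0.20 between organoid and tissue (adjusted p = 0.229), which was called with at most 5% mitochondrial UMIs (0.51, adjusted p = 0.0194). Ocln rose in assembloids (0.94 ± 0.23, adjusted p = 0.0102) and fell in organoids (-0.80 ± 0.23, adjusted p = 0.0213) against tissue, and was lower in organoids than in assembloids (-1.74 ± 0.24, adjusted p = 0.000618). Each of the 2 Ocln differences from tissue lost its call under 4 alternatives. Without either tissue library they had adjusted p-values of 0.0995 to 0.145, the rise also missed the threshold without assembloid 2 (0.70, adjusted p = 0.0610) or with library totals as the only scaling (0.58, adjusted p = 0.111), and the fall missed it without organoid 1 (-0.65, adjusted p = 0.0790) and with thinned cells (adjusted p = 0.0508).

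To ask whether these differences came with a different mix of cells, cells with at least 2000 UMIs were thinned to 2000 UMIs and gated by marker lists that hold none of the 10 genes. The colonocyte gate held 559 and 634 cells in tissue and 887 and 682 in assembloids, but 8 and 3 in organoids. The goblet gate held 600 and 694 cells in tissue, 332 and 279 in assembloids, and 12 and 15 in organoids. The cycling gate, set on proliferation genes, held 188 and 130 cells in tissue, 2455 and 2205 in organoids and 5119 and 1014 in assembloids. Most of the deeper assembloid cells (14465 and 3997) reached no gate. Levels within a gate are CPM of the unthinned UMIs of its cells.

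**Figure D2:**
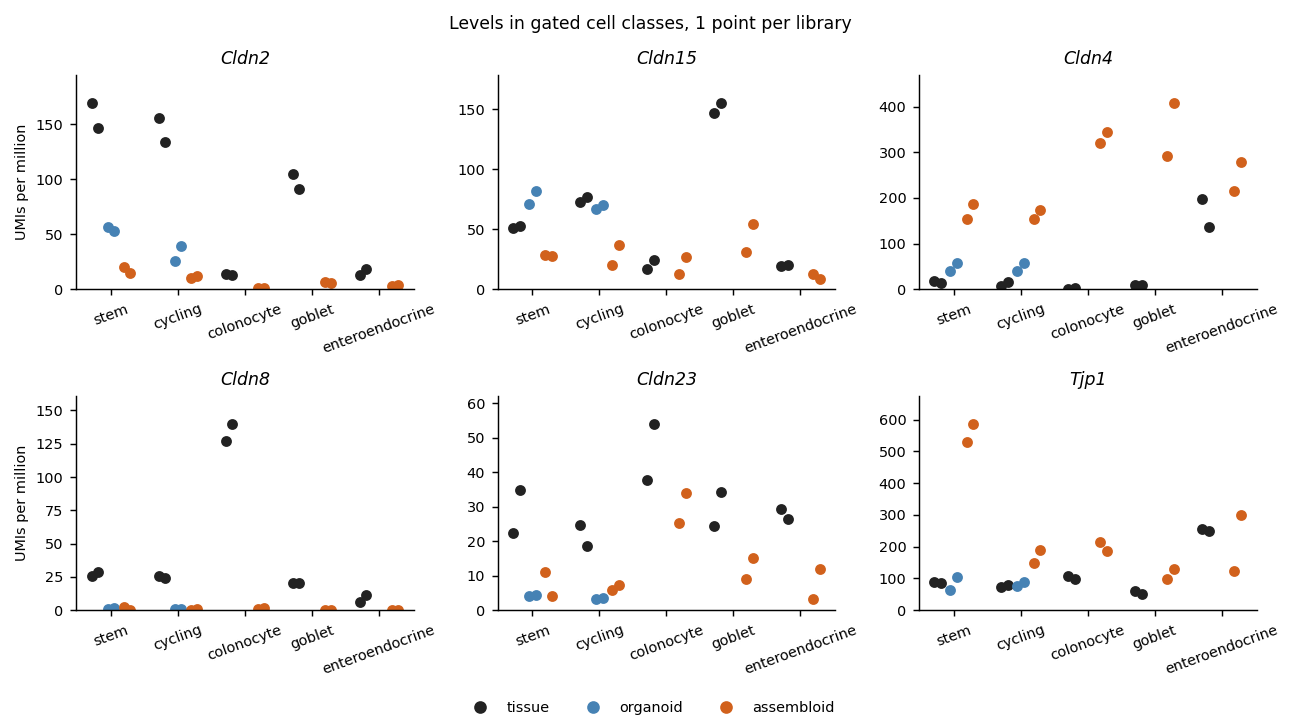
CPM of 6 tight junction genes in stem-, cycling-, colonocyte-, goblet- and enteroendocrine-gated cells, 1 point per library (linear axes from 0); organoids are drawn only for the stem and cycling gates, since their other gates held 15 cells or fewer. Tissue Cldn8 was highest in colonocyte-gated cells (127 and 139), tissue Cldn15 in goblet-gated cells (147 and 155), and tissue Cldn4 in enteroendocrine-gated cells (197 and 135).

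Within the cycling gate, Cldn2 and Cldn8 were again lower and Cldn4 higher in both cultures than in tissue. Between assembloid and tissue 6 of 9 members were called (2 higher, 4 lower; 38.7% of all genes tested), between organoid and tissue 5 (1 higher, 4 lower; 31.2%), and between organoid and assembloid 6 (2 higher, 4 lower; 45.0%). Cldn2 was at 156 and 133 CPM in cycling-gated tissue cells, 25.4 and 38.8 CPM in organoid cells and 10.3 and 11.8 CPM in assembloid cells. The groups did not overlap, and its log2 fold change was -3.21 ± 0.26 for assembloid (adjusted p = 8.58e-07) and -1.77 ± 0.24 for organoid (adjusted p = 0.000101) against tissue. Cldn4 was at 6.50 and 15.3 CPM in tissue, 40.7 and 58.1 CPM in organoids and 154 and 174 CPM in assembloids in this gate. It rose by 4.53 ± 0.36 in assembloids (adjusted p = 8.84e-07) and 2.70 ± 0.35 in organoids (adjusted p = 7.20e-05) on the log2 scale. Without tissue 2 these rises were 5.22 and 3.40, and with doubled gates the rise in organoids was 3.59. In the assembloid libraries, fibroblast-gated cells held Cldn4 at 57.3 and 42.6 CPM and immune-gated cells at 75.0 and 52.3 CPM. The size of the assembloid rise is thus not fixed. Cldn8 was at 25.7 and 24.3 CPM in cycling-gated tissue cells and at 0.364 to 1.27 CPM in those of both cultures. It was lower in assembloids (-4.68 ± 0.50, adjusted p = 1.04e-05, and -4.05 and -5.45 without assembloid 1 and 2) and organoids (-4.14 ± 0.47, adjusted p = 2.15e-05). The lowest level was that of assembloid 1, whose fibroblast-gated cells held 0.454 CPM, so the size of the assembloid fall is not fixed. Nor is that of the organoid fall, since no background was measured in organoids.

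Of the remaining members in the cycling gate, Tjp1 rose in assembloids (1.65 ± 0.25, adjusted p = 0.000197), from 73.4 and 78.0 CPM in tissue to 147 and 190 CPM. Cldn23 was lower than in tissue in both assembloids (-1.25 ± 0.31, adjusted p = 0.00698) and organoids (-2.24 ± 0.32, adjusted p = 0.000152), and Cldn15 was lower in assembloids (-0.92 ± 0.27, adjusted p = 0.0150). The Cldn23 call in assembloids was lost without tissue 1 (-0.91, adjusted p = 0.173), and the Cldn15 call without either tissue library or assembloid 1 (-0.85, -0.83 and -0.62, adjusted p = 0.156, 0.136 and 0.194). Ocln, which had risen in assembloids on whole libraries, was at 118 and 99.5 CPM in cycling-gated tissue cells and 82.7 and 127 CPM in assembloid cells. These overlapped, and the difference of 0.43 ± 0.26 was not called (adjusted p = 0.200). In organoids Ocln was at 33.0 and 53.3 CPM and was lower than in tissue (-0.94 ± 0.26, adjusted p = 0.0136), a call lost without either tissue library or organoid 1 (adjusted p = 0.0689 to 0.276), or with doubled gates (-0.81, adjusted p = 0.0576). Between organoid and assembloid in this gate, Cldn2 (1.44) and Cldn15 (1.22) were higher and Cldn4 (-1.83), Ocln (-1.37), Tjp1 (-1.10) and Cldn23 (-0.995) lower in organoids, of which Cldn23 was lost without organoid 2 (-0.90, adjusted p = 0.0668). Cldn8 differed by 0.54 ± 0.47 (adjusted p = 0.364) and was called without assembloid 2 (1.34, adjusted p = 0.0376). Cldn3 and Cldn7 were not called in this gate. Against tissue they differed by 0.58 ± 0.32 and 0.95 ± 0.38 in assembloids and by 0.50 ± 0.32 and 0.53 ± 0.38 in organoids. The assembloid difference was called without organoid 1 or 2 and with DESeq2 for both genes (with DESeq2, 0.69 and adjusted p = 0.0454 for Cldn3, 1.06 and adjusted p = 0.00503 for Cldn7). For Cldn7 it was also called without assembloid 2 (1.32, adjusted p = 0.0124), with the replicate block (0.88, adjusted p = 0.0473) and with no filter on low counts (0.95, adjusted p = 0.0431). In organoids, Cldn3 (0.88, adjusted p = 0.0142) and Tjp1 (0.65, adjusted p = 0.0289) were called against tissue without organoid 2.

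Colonocyte-gated cells, the absorptive cells of the upper crypt, showed the widest gap in Cldn4. It was at 1.36 and 2.52 CPM in tissue and 320 and 344 CPM in assembloids. Both assembloid libraries lay far above both tissue libraries, and the log2 fold change was 7.93 ± 0.27 (adjusted p = 2.92e-07). No background was measured in tissue, where the level was low, so the size of this Cldn4 rise is not fixed by these data. Of the 9 members 6 were called in this gate (4 higher and 2 lower in assembloids; 54.0% of all genes tested). Cldn8 was at 127 and 139 CPM in tissue and 0.788 and 1.46 CPM in assembloids, 78.8-fold lower (-6.30 ± 0.24, adjusted p = 4.60e-07). In fibroblast-gated cells of the assembloid libraries Cldn8 was at 0.454 and 0.142 CPM. Assembloid 1 was thus near background, and the size of the Cldn8 fall is not fixed by these data. Cldn2, already low in tissue colonocytes at 14.2 and 12.7 CPM, was at 1.31 and 1.14 CPM in those of assembloids (-2.97 ± 0.30, adjusted p = 5.00e-05; -4.71 with doubled gates). Fibroblast-gated cells of the assembloid libraries held Cldn2 at 1.21 and 0.992 CPM and immune-gated cells at 2.19 and 1.55 CPM, so the assembloid colonocyte level was at background and the size of this fall is not fixed by these data. Tjp1 (1.47 ± 0.18, adjusted p = 0.000132), Ocln (1.08 ± 0.16, adjusted p = 0.000456) and Cldn7 (1.12 ± 0.28, adjusted p = 0.00801) rose. The Cldn7 call was lost with library totals as the only scaling (0.60, adjusted p = 0.0660). It was also lost without tissue 2, where the value was 1.04. The spread of that fit came from the assembloid libraries alone, so this loss does not show that tissue 2 carried the difference.

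Cldn23 and Cldn15 did not show in colonocyte-gated cells the fall they showed on whole libraries. Cldn23 was at 37.7 and 54.0 CPM in tissue and 25.2 and 33.9 CPM in assembloids. The CPM values did not overlap, but with TMM scaling the log2 fold change was -0.12 ± 0.20 (adjusted p = 0.633), and with library totals as the only scaling it was -0.62 (adjusted p = 0.0313). Cldn15 was at 16.5 and 24.6 CPM in tissue and 12.3 and 26.7 CPM in assembloids, which overlapped (0.45 ± 0.31, adjusted p = 0.243). Cldn3 differed by 0.54 ± 0.22 (adjusted p = 0.0627), which was called with DESeq2 (0.57, adjusted p = 0.0217), with the replicate block (0.51, adjusted p = 0.0220) and with no filter on low counts (0.48, adjusted p = 0.0394). Without assembloid 1 the differences were 0.84 for Cldn15 (adjusted p = 0.00215) and 0.81 for Cldn3 (adjusted p = 4.91e-05). That fit took its spread from the 2 tissue libraries alone and assumed that the remaining assembloid library varied like them, so these p-values hold no measure of the spread between assembloids.

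Goblet-gated cells, the mucus-secreting class, differed between assembloid and tissue in 8 of 9 members (5 higher, 3 lower; 48.6% of all genes tested). Cldn4 was at 8.0 and 10.0 CPM in tissue and 291 and 407 CPM in assembloids (5.84 ± 0.23, adjusted p = 4.78e-05). Cldn3 was at 452 and 514 CPM in tissue and 613 and 1066 CPM in assembloids (1.35 ± 0.24, adjusted p = 0.00451), and Cldn7 at 1065 and 1063 CPM in tissue and 2121 and 1390 CPM in assembloids (1.31 ± 0.26, adjusted p = 0.00706; 0.72 with library totals as the only scaling). For these 3 genes both assembloid libraries lay above both tissue libraries. Tjp1 (1.58 ± 0.17, adjusted p = 0.000631) and Ocln (0.97 ± 0.17, adjusted p = 0.00407) also rose. The calls of Cldn3 (1.25 without tissue 1), Cldn7 (1.30 and 1.28 without tissue 1 and 2) and Ocln (0.88 without tissue 2) were lost in these fits. The values moved little, and the spread of these fits came from the assembloid libraries alone. The losses therefore do not show that a tissue library carried the differences. The Ocln call was also lost with library totals as the only scaling (0.41, adjusted p = 0.104).

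Cldn15 was highest in the goblet gate of tissue. It was at 147 and 155 CPM in goblet-gated tissue cells, 72.9 and 76.9 CPM in cycling-gated and 16.5 and 24.6 CPM in colonocyte-gated cells of the same libraries, and the goblet-gated cells, with 23.4% and 26.8% of the UMIs, gave 50.1% and 52.4% of those of Cldn15. In assembloid goblet-gated cells it was at 31.3 and 54.2 CPM, below both tissue libraries (-1.24 ± 0.21, adjusted p = 0.00388). Cldn2 fell further, from 105 and 91.2 CPM in tissue to 6.07 and 5.71 CPM (-3.51 ± 0.20, adjusted p = 7.62e-05). Cldn8 was at 20.3 and 20.2 CPM in goblet-gated tissue cells, and at 0 and 0.489 CPM in those of assembloids (adjusted p = 0.000311). Cldn23 differed by -0.69 ± 0.26 (adjusted p = 0.0660) and was called with the replicate block (-0.74, adjusted p = 0.0148), with no filter on low counts (-0.75, adjusted p = 0.00399) and with library totals as the only scaling (-1.24, adjusted p = 0.00364). Without assembloid 2 it was -1.15 (adjusted p = 0.000161), again with the spread of the tissue libraries alone.

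**Figure D3:**
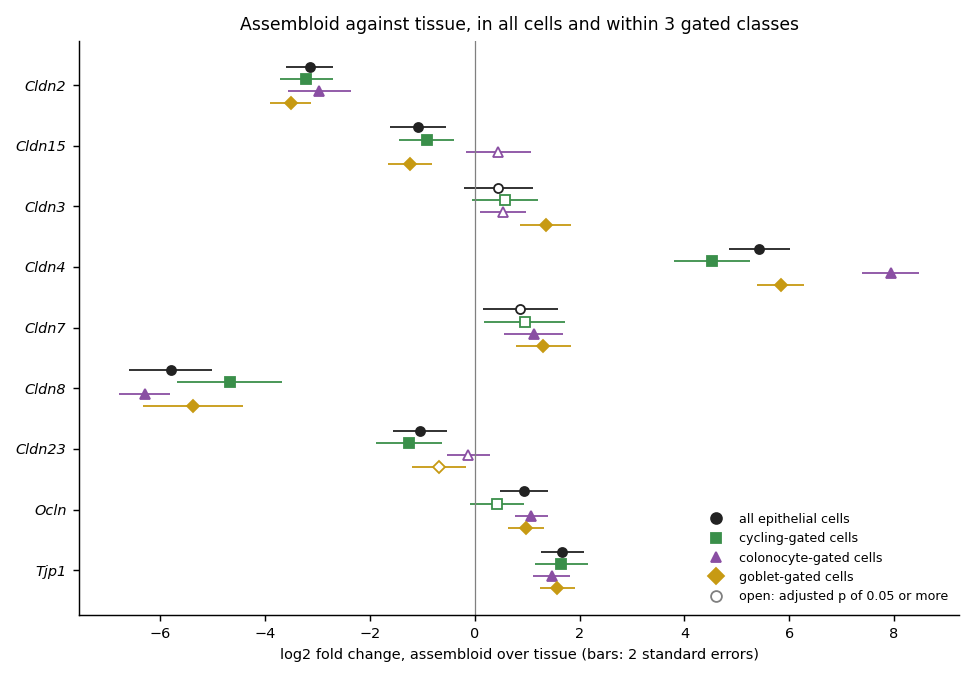
Log2 fold change of assembloid over tissue for 9 tight junction genes in all epithelial cells and in cycling-, colonocyte- and goblet-gated cells (2 libraries a group; bars are 2 standard errors; open symbols have an adjusted p of 0.05 or more). Cldn4 ran from 4.53 in cycling-gated to 7.93 in colonocyte-gated cells, and Cldn2, Cldn8 and Tjp1 were called on the same side in all 4. These sizes of the Cldn4 rise are not fixed by the data.

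A large part of the Cldn4 of tissue came from few cells. Enteroendocrine-gated cells, the hormone-secreting class, numbered 43 and 82 in the tissue libraries and held 1.01% and 1.64% of the UMIs, but 29.4% and 26.0% of those of Cldn4. Their Cldn4 level was 197 and 135 CPM, and no other gate in tissue exceeded 17.3 CPM. In assembloids the enteroendocrine level (215 and 280 CPM, 64 and 37 cells) lay between those of cycling- and goblet-gated cells. Tjp1 was likewise higher in enteroendocrine-gated tissue cells (256 and 250 CPM) than in tissue colonocyte-gated cells (108 and 98.1 CPM). The assembloid cells of the stem gate, 62 and 71 in number, had Tjp1 at 528 and 587 CPM, against 90.2 and 87.2 CPM in the tissue and 64.2 and 105 CPM in the organoid stem gate. Their Ocln was at 253 CPM in both libraries, against 149 and 154 CPM in the tissue and 47.6 and 83.4 CPM in the organoid stem gate. These enteroendocrine and stem gate levels were not tested.

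The share of cells with a Cldn4 UMI, at an equal 2000 UMIs per cell, gave the same picture. In tissue 0 of 559 colonocyte-gated cells of the first library had one, which allows a share of up to 0.537% (an approximate limit, not an exact interval). In the second 0.315% of 634 had one (95% exact binomial interval 0.0382% to 1.13%). In assembloids 39.1% (35.9% to 42.4%) and 40.9% (37.2% to 44.7%) of colonocyte-gated cells had one. Without thinning these shares were 2.15% and 3.31% in tissue and 69.7% and 84.3% in assembloids, at median depths of 18717 and 15947.5 UMIs in tissue and 7954 and 16873 UMIs in assembloids. The assembloid suspensions also held cells with more fibroblast, immune and endothelial than epithelial marker UMIs, and 10.6% and 5.93% of the fibroblast-gated ones (median depths 4550 and 10587 UMIs) had a Cldn4 UMI after thinning. Of the immune-gated ones 15.8% (11.1% to 21.6%) of 202 and 6.70% (3.71% to 10.98%) of 209 had one (median depths 5001.5 and 12766.5 UMIs). In the colonocyte, goblet and cycling gates the intervals lay above those of both these classes in the same library, the lowest share being the 23.7% (21.1% to 26.4%) of cycling-gated cells of assembloid 2; the tuft and stem gates held few cells. For Cldn8 the shares in colonocyte-gated cells were 23.6% (20.2% to 27.4%) and 24.8% (21.4% to 28.3%) in tissue, and 0.338% (0.0698% to 0.985%) and 0.587% (0.160% to 1.49%) in assembloids. Fibroblast-gated cells had 0% and 0.169% and immune-gated cells 0%, so the assembloid shares of Cldn8 were at or near background. Cldn2 was found in 26.1% (19.9% to 33.0%) and 19.2% (12.8% to 27.1%) of cycling-gated tissue cells, 4.93% and 8.21% of those of organoids and 1.72% (1.38% to 2.11%) and 2.17% (1.36% to 3.27%) of those of assembloids. The Cldn2 share was 0.203% and 0% in fibroblast-gated and 0.495% (0.0125% to 2.73%) and 0.957% (0.116% to 3.41%) in immune-gated cells of the assembloid libraries, and the last 2 intervals overlapped those of the assembloid cycling gate. The intervals cover counting error only.

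As a stand-in for the crypt axis, colonocyte-gated cells were compared with cycling-gated cells of the same libraries. The position of these dissociated cells was not measured, and axis here means only this comparison of gates. In tissue, colonocyte-gated cells had more Cldn8, Cldn3, Cldn23, Cldn7 and Tjp1 and less Cldn2, Cldn4 and Cldn15 than cycling-gated cells. Goblet- and enteroendocrine-gated cells were not compared with cycling-gated cells in this way. All 9 members tested were called (6 higher and 3 lower in colonocytes), where 50.0% of all genes were. Cldn8 rose by 3.02 ± 0.15 on the log2 scale, from 25.7 and 24.3 CPM in cycling-gated cells to 127 and 139 CPM (adjusted p = 1.69e-07). Cldn2 was 6.98-fold lower in colonocyte-gated cells (-2.80 ± 0.14, adjusted p = 1.97e-07). No background was measured in tissue, where the marker gate left out only 12 and 10 cells, so the size of this Cldn2 fall is not fixed. Cldn3 (1.68 ± 0.16), Cldn23 (1.62 ± 0.21), Cldn7 (1.24 ± 0.18) and Tjp1 (1.08 ± 0.14) were higher and Cldn15 (-1.28 ± 0.18) lower, each with an adjusted p of 0.000188 or less, and Cldn15 was at -2.18 with doubled gates. With library totals in place of TMM every member had a lower value in this comparison (Cldn8 2.39, Cldn3 1.05, Cldn23 1.00, Cldn7 0.61, Tjp1 0.45, Cldn15 -1.90, Cldn4 -2.45 and Cldn2 -3.43), and these 8 kept their calls. Cldn4 was lower in tissue colonocytes (-1.83 ± 0.29, adjusted p = 0.000378), at levels of 1.36 to 15.3 CPM, and was not called with doubled gates (-0.80, adjusted p = 0.239). Without a measured tissue background the size of this Cldn4 fall is not fixed either. The direction for Ocln depended on the scaling: 0.41 ± 0.13 (adjusted p = 0.0225) with TMM, and -0.21 (adjusted p = 0.234) with library totals alone, while its CPM was 118 and 99.5 in cycling- and 91.7 and 96.9 in colonocyte-gated cells; without tissue 1 or 2 it was not called either (adjusted p = 0.0520 and 0.363).

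In assembloids most members followed the tissue direction, while Cldn4 was higher in colonocyte-gated cells. Its opposite direction in tissue was not called with doubled gates. Of the 9 tested, 8 were called (7 higher, 1 lower; 52.0% of all genes tested). Cldn2 was lower in colonocyte-gated cells (-2.73 ± 0.22, adjusted p = 4.69e-06; -4.87 with doubled gates), as in tissue but from a lower level and down to the background level given above, so that the size of this difference was not measured, and Cldn23 (2.62 ± 0.19, adjusted p = 2.62e-06), Cldn3 (1.43 ± 0.16, adjusted p = 3.74e-05), Cldn7 (1.22 ± 0.18, adjusted p = 0.000214), Ocln (0.89 ± 0.12, adjusted p = 0.000126) and Tjp1 (0.71 ± 0.12, adjusted p = 0.000838) were higher. The Tjp1 call was lost with library totals as the only scaling (0.26, adjusted p = 0.157). Cldn4 was 2.77-fold higher in colonocyte-gated assembloid cells (1.47 ± 0.12, adjusted p = 3.81e-06), at 320 and 344 CPM against 154 and 174 CPM. Cldn8 was 1.07 ± 0.34 higher (adjusted p = 0.0227) at levels of at most 1.46 CPM, and the call was lost without either assembloid library (adjusted p = 0.0840 and 0.105), with doubled gates (0.68, adjusted p = 0.401) and with library totals (0.58, adjusted p = 0.209). Cldn15 differed by -0.11 ± 0.17 (adjusted p = 0.616), and by -0.57 with library totals (adjusted p = 0.0127).

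**Figure D4:**
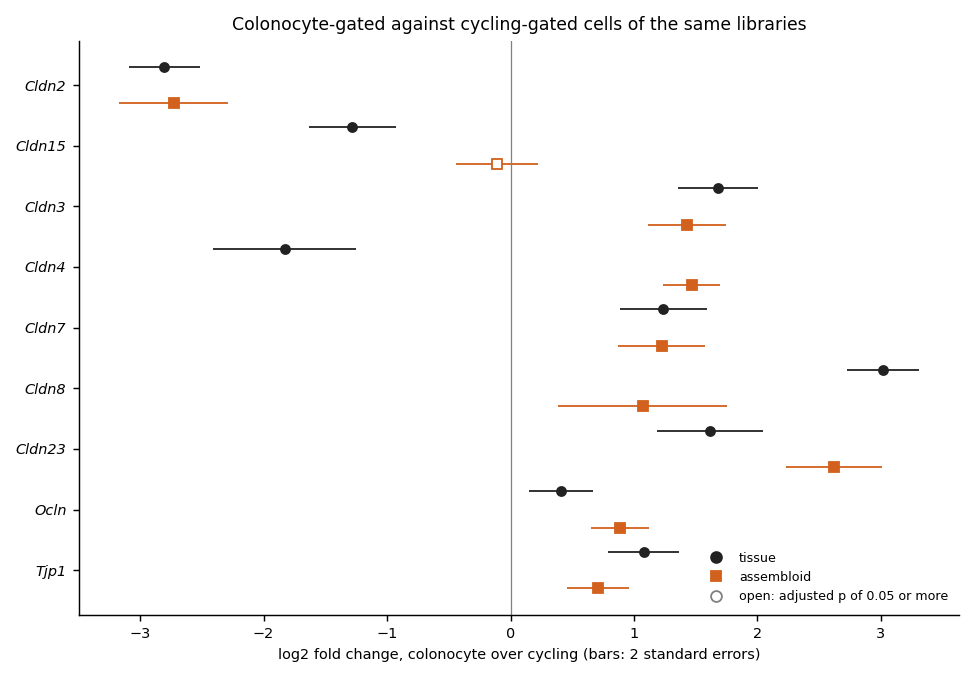
Log2 fold change of colonocyte-gated over cycling-gated cells of the same libraries for 9 tight junction genes, in tissue and in assembloids (2 libraries each; bars are 2 standard errors; the open symbol has an adjusted p of 0.05 or more). Cldn2 lay at -2.80 and -2.73, while Cldn4 lay at -1.83 in tissue and at 1.47 in assembloids. The assembloid value of Cldn2 rests on a colonocyte level at background, and that of Cldn8 on levels near it. The tissue value of Cldn4 rests on low levels with no measured background.

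A direct test of the difference between the 2 axes called 4 of 9 members (3 with a higher value in assembloids, 1 with a lower one), against 14.8% of all genes (2 members without tissue 1). Cldn4 differed by 3.30 ± 0.32 (adjusted p = 0.000278), Cldn15 by 1.17 ± 0.24 (adjusted p = 0.0110), Cldn23 by 1.00 ± 0.29 (adjusted p = 0.0455) and Cldn8 by -1.95 ± 0.37 (adjusted p = 0.00714). Assembloid Cldn8 was at 0.364 and 1.14 CPM in cycling-gated and 0.788 and 1.46 CPM in colonocyte-gated cells. Fibroblast-gated cells held 0.454 and 0.142 CPM, so the Cldn8 difference rests on assembloid levels near background and its size is not fixed. The tissue part of the Cldn4 difference rests on 1.36 and 2.52 CPM in colonocyte-gated cells. No background was measured in tissue, so the size of that difference is not fixed. Cldn4 kept its call under every alternative tried, with values from 2.68 to 3.48. Cldn23 lost it without tissue 1 (0.46, adjusted p = 0.540), with DESeq2 (adjusted p = 0.103) and with doubled gates (adjusted p = 0.0990). Cldn15 lost it without tissue 1 (0.90, adjusted p = 0.0848), Cldn8 without assembloid 2 (-1.59, adjusted p = 0.0964), and both, like Cldn23, when the library block was left out (adjusted p = 0.0794 to 0.145). For Cldn2, at background in assembloid colonocyte-gated cells, the difference was 0.08 ± 0.32, and -2.05 with doubled gates (adjusted p = 0.104), so its size was not measured. It was -0.25 ± 0.22 for Cldn3, -0.01 ± 0.25 for Cldn7, -0.37 ± 0.19 for Tjp1 and 0.48 ± 0.17 for Ocln (adjusted p = 0.0945). None of these differences was called. The Ocln difference was called without assembloid 1 or 2 (0.56 and 0.51, adjusted p = 0.0411 and 0.0494) and with DESeq2 (0.61, adjusted p = 0.0479), and that of Cldn3 without assembloid 2 (-0.48, adjusted p = 0.0285).

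The other genes of epithelial junctions were counted on whole libraries from 4 lists of 67 gene symbols. Of the 53 tested, 17 were higher and 11 lower in assembloids than in tissue, 7 higher and 14 lower in organoids than in tissue, and 6 higher and 24 lower in organoids than in assembloids, with median log2 fold changes of 0.25, -0.34 and -0.41. In all 52.8%, 39.6% and 56.6% of the 53 were called, against 50.0%, 47.1% and 53.4% of all genes tested, and nothing particular to junction genes is read from these counts. Most other claudins were at or near 0, and 5 of 18 passed the filter. Of these 5, 1 was higher and 2 lower in assembloids than in tissue, 0 and 2 in organoids than in tissue, and 1 and 3 in organoids than in assembloids. Cldn14 was lower in assembloids than in tissue (-1.94 ± 0.39, adjusted p = 0.00424), and Cldn12 was lower in both assembloids (-0.81, adjusted p = 0.0107) and organoids (-0.73, adjusted p = 0.0169). Cldn18, at 0.222 CPM or less in each library, was called higher in assembloids than in tissue (adjusted p = 0.0129), and Cldn10, at 1.25 CPM or less, was called lower in organoids than in tissue (adjusted p = 0.00386). These 4 were named after their values were seen. Of 30 genes for scaffold and membrane partners of the tight junction, 11 were higher and 6 lower in assembloids than in tissue, 5 and 6 in organoids than in tissue, and 1 and 11 in organoids than in assembloids, or 56.7%, 36.7% and 40% called against the same 50.0%, 47.1% and 53.4% of all genes. Of the 8 desmosome genes tested, 4 were higher and 0 lower in assembloids than in tissue, 2 higher and 3 lower in organoids than in tissue, and 1 higher and 6 lower in organoids than in assembloids, or 50.0%, 62.5% and 87.5% called against that background. The adherens junction list of 10 genes had 1 higher and 3 lower, 0 and 3, and 3 and 4 in the same comparisons, or 40%, 30% and 70% called.

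Among called genes whose mean log2 CPM reached 4, those with the 2 highest and 2 lowest fold changes are named. Ybx3, a Y-box protein that binds ZO-1, was higher than in tissue in assembloids (1.34 ± 0.30, adjusted p = 0.00649) and organoids (1.45 ± 0.30, adjusted p = 0.00461). The desmosomal plakophilin Pkp2 was higher in assembloids (1.09 ± 0.20, adjusted p = 0.00254), and the scaffold Magi1 (-1.23 ± 0.34, adjusted p = 0.0170) and the adhesion protein Nectin3 (-1.22 ± 0.21, adjusted p = 0.00193) were lower. Vcl, which encodes vinculin of the adherens junction, was at 307 and 357 CPM in tissue, 58.8 and 93.0 CPM in organoids and 175 and 269 CPM in assembloids. It was lowest in organoids, below tissue (-1.92 ± 0.26, adjusted p = 0.000561) and assembloids (-1.71 ± 0.26, adjusted p = 0.00101). Cxadr, the coxsackievirus and adenovirus receptor, was also lower in organoids than in tissue (-1.33 ± 0.24, adjusted p = 0.00237) and assembloids (-1.89 ± 0.24, adjusted p = 0.000501). Sympk, the polyadenylation factor symplekin, was higher in organoids than in tissue (0.76 ± 0.18, adjusted p = 0.00811), and Patj (0.78 ± 0.27, adjusted p = 0.0368), a polarity scaffold, and Nectin3 (0.69 ± 0.21, adjusted p = 0.0215) were higher in organoids than in assembloids. The junctional adhesion gene Jam3, named with Jam2 after their values were seen, was at 0.340 and 0.135 CPM in tissue, 0.933 and 1.82 CPM in organoids and 13.4 and 9.70 CPM in assembloids. It was higher than in tissue in assembloids (5.95 ± 0.49, adjusted p = 6.11e-05) and in organoids (2.66 ± 0.48, adjusted p = 0.00224). Jam2 was also called higher in both (adjusted p = 0.000621 and 0.0382), from 0.0638 and 0.0542 CPM in tissue to 0.139 and 0.441 CPM in organoids and 3.17 and 1.56 CPM in assembloids. The fibroblast markers summed to 231 and 52.7 CPM in assembloids and to at most 0.0431 CPM in organoids, and their part in these differences was not tested.

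**Figure D5:**
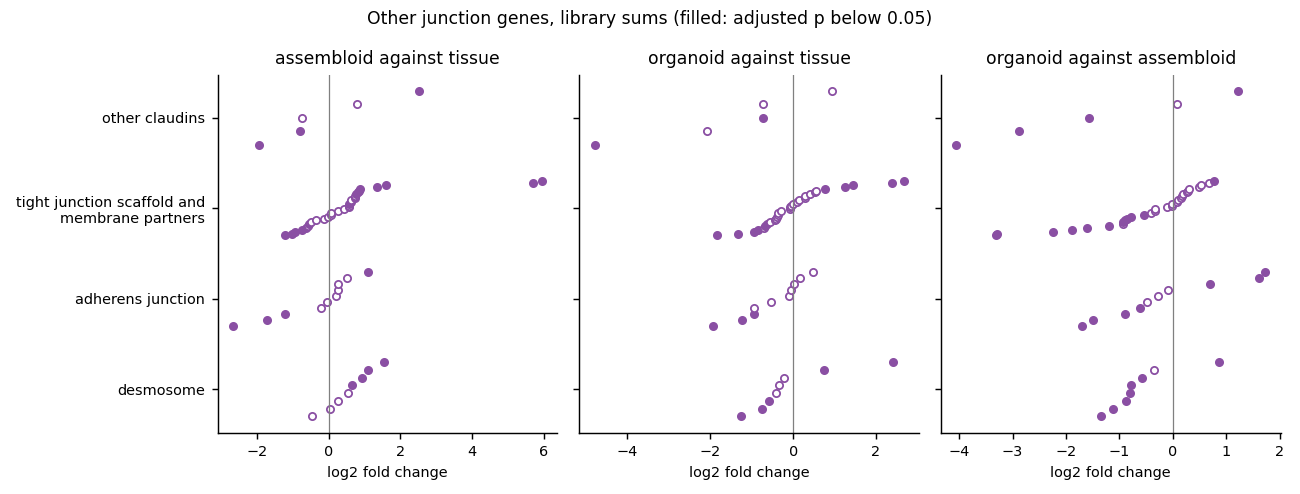
Log2 fold change on whole libraries for 53 other junction genes in 4 lists, one panel per comparison (each point is a gene; filled points have an adjusted p below 0.05). In the last panel 24 of the filled points lie below 0 and 6 above, and the points near 6 in the first panel are Jam3 and Jam2.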

How the data were processed

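Raw counts (UMIs per gene and cell) were deposited per library by the authors as 10x matrices (3′ v3 kit, mm10); the labels name Cell Ranger 6, and the matrix headers version 7.1.0. The 10 members and all lists were chosen with earlier results of these data known. Cells with at least 500 genes, at most 10% mitochondrial UMIs and more epithelial than stromal marker UMIs were kept. Doublets were not called. Cells in more than 1 of the colonocyte, goblet, enteroendocrine, tuft and cycling gates were left out. The stem gate took only cells in none of these, so the other gates can hold cells with stem list UMIs. Gates asked for at least 20 colonocyte, 40 goblet, 10 enteroendocrine, 5 tuft, 3 cycling or 3 stem list UMIs of 2000, and were set on the list sums without the members' values. UMIs were summed per library, or per library and gate, and tested with edgeR 4.0.16 (TMM, filterByExpr, quasi-likelihood test, Benjamini-Hochberg over all genes tested, threshold 0.05; whole libraries and the cycling gate fitted over all 3 groups, the colonocyte against cycling test with library as a block). The SE is the log2 fold change over the square root of F. The scripts were tested on simulated data with set changes. Alternatives were DESeq2 1.42.0, other filters, scalings and gates, a replicate block, and each library left out, where the lone library of a group is assumed to vary like the others. All 10 members were named, and other junction genes by counts and the 2 highest and 2 lowest called.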

Additional observations from a re-analysis of the deposited data

Results flagged for a closer look

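The change from cycling-gated to colonocyte-gated cells differed between assembloids and tissue for 4 of the 9 tight junction genes tested, by a direct test of the difference on the log2 scale (assembloid minus tissue, edgeR, 2 libraries a group), which called 14.8% of all genes. Without tissue 1, 2 members were called, and with no library block 1. Cldn4 differed by 3.30 (adjusted p = 0.000278). It was higher in colonocyte-gated cells in assembloids (1.47) and lower in those of tissue (-1.83). The tissue fall was not called with doubled gates (-0.80, adjusted p = 0.239). No background was measured in tissue, so the size of the Cldn4 difference is not fixed. Cldn8 differed by -1.95 (adjusted p = 0.00714), with assembloid levels of at most 1.46 CPM. These were near the background of fibroblast-gated cells (0.454 and 0.142 CPM), so the size of the Cldn8 difference is not fixed. Cldn15 differed by 1.17 (adjusted p = 0.0110) and Cldn23 by 1.00 (adjusted p = 0.0455). The call of the Cldn4 difference between the axes was kept under every alternative tried, while Cldn8, Cldn15 and Cldn23 each lost theirs under at least 2.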

How the results depend on the processing

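Of 1134 values of single members under an alternative, 1018 kept their direction and side of the threshold, 47 lost a call, 39 gained one and 30 changed sign; of 790 that were called in the main analysis, 742 kept their call, 47 lost it and 1 changed sign. The number of genes called in all moved by over 1.5 times with thinned cells on whole libraries (6191 for assembloid against tissue, 5991 for organoid against tissue, 6401 for organoid against assembloid), with doubled gates in the cycling gate (4185 for assembloid against tissue, 4633 for organoid against assembloid), and, for the difference between the colonocyte against cycling axes, with DESeq2 (1295), no filter (3390), doubled gates (1118) and no library block (839, with 1 member called). Leaving out 1 library gave 5396 to 10316 genes for assembloid against tissue (4 to 8 members), 5247 to 9729 for organoid against tissue (3 to 5 members), 2556 to 6509 and 1714 to 5693 for these in the cycling gate, 4764 to 7619 for organoid against assembloid in that gate, 2732 to 7065 in the goblet gate, 4833 to 8318 for colonocyte against cycling in tissue and 887 to 3221 for the difference between the axes (2 to 5 members). The cause was not tested; the low counts mostly came without a tissue library.

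Changes of sign, all but 1 in values that were not called: with library totals in place of TMM, Cldn7 (-0.0504) and Cldn15 (-0.11) for organoid against tissue, Ocln for assembloid (-0.054) and Cldn15 for organoid (-0.13) against tissue in the cycling gate, Cldn15 in the colonocyte gate (-0.0431), Ocln for colonocyte against cycling in tissue (-0.21, called with TMM) and Cldn7 for the difference between the axes (0.16). With limits of 20% and 5% mitochondrial UMIs, Cldn3 (0.087) and Cldn15 (-0.23) changed sign for organoid against tissue, and with thinned cells Cldn8 for organoid against assembloid (-0.0216). With doubled gates, Cldn15 for organoid against tissue (-0.0576) and Cldn3 for organoid against assembloid (0.0166) in the cycling gate and Cldn2 for the difference between the axes (-2.05) changed sign, as did, with no filter, Cldn3 (0.0023) and Cldn2 (-0.0464) in the same tests, and with DESeq2 Cldn7 for the difference between the axes (0.13). Without 1 library, organoid against tissue ran from -0.54 to 0.23 for Cldn3, -0.15 to 0.52 for Cldn7 and -0.0433 to 0.29 for Cldn15, organoid against assembloid from -0.13 to 1.09 for Cldn8, the same in the cycling gate from -0.49 to 0.22 for Cldn3, -0.75 to 0.0567 for Cldn7 and -0.0772 to 1.34 for Cldn8, assembloid against tissue in the colonocyte gate from -0.18 to 0.84 for Cldn15 and -0.37 to 0.12 for Cldn23, colonocyte against cycling in assembloids from -0.36 to 0.14 for Cldn15, and the difference between the axes from -0.48 to 0.0769 for Cldn3 and -0.0345 to 0.11 for Cldn7.

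Library totals in place of TMM moved the median log2 fold change of all genes from 0.03 to -0.35 for assembloid against tissue, and to between -0.32 and -0.61 in the gated tests against tissue and along the axis. The share of called genes that were higher moved from 53.8% to 38.4% for assembloid against tissue, from 54.9% to 31.7% and 52.6% to 26.3% for assembloid and organoid in the cycling gate, from 51.9% to 27.4% in the colonocyte gate, from 53.1% to 22.5% in the goblet gate, and along the axis from 52.8% to 23.1% in tissue and from 44.1% to 21.1% in assembloids (54.3% with DESeq2); for the difference between the axes it moved from 38.3% to 56.0% (53.8% with DESeq2). The replicate numbers were not shown to pair libraries: deviations of same-numbered libraries had correlations of -0.02 to 0.04 across 19260 genes. With a replicate block, 9503, 8915 and 10134 genes were called on whole libraries, with 7, 5 and 6 members, and the block added the calls of Cldn7 in the cycling gate (0.88), Cldn3 in the colonocyte gate (0.51) and Cldn23 in the goblet gate (-0.74).

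With 2 libraries a group and few cells in the organoid colonocyte and goblet gates, no organoid test was run there. The stem and enteroendocrine gates held as few as 62 and 37 assembloid cells.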

Other observations

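Cells of the assembloid libraries with more stromal than epithelial marker UMIs also held UMIs of most members. Fibroblast-gated cells (1243 and 599) held Cldn7 at 464 and 153 CPM, Cldn3 at 97.2 and 73.5 CPM, Cldn4 at 57.3 and 42.6 CPM and Ocln at 37.5 and 20.8 CPM, and immune-gated cells (260 and 218) held Cldn7 at 585 and 290 CPM and Cldn4 at 75.0 and 52.3 CPM. The part of such UMIs in the levels of the assembloid epithelial cells was not tested. Tjp1, which is not restricted to epithelium, was at 75.9 and 57.7 CPM in fibroblast-gated and 67.3 and 39.6 CPM in immune-gated cells. The epithelial marker Epcam was at 393 and 213 CPM in the same fibroblast-gated cells.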
